A study of Mus musculus with 12 samples.

Results

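Camk2a, Camk2b, Camk2d and Camk2g encode the subunits of Ca2+/calmodulin-dependent protein kinase II (CaMKII), and Calm2 and Calm3 encode calmodulin, the Ca2+ sensor that switches the kinase on. These 6 genes were taken by symbol from the 33641 genes listed for each sample, and all 6 were detected in every sample. Messenger RNA had been sequenced from polyA stranded libraries of 12 mouse ventricle samples. Each genotype, WT-PLN and R14del-PLN, gave 3 samples of the left ventricle (LV) and 3 of the right ventricle (RV). All mice were knock-ins in which human phospholamban coding sequence had been targeted to the start codon of the mouse gene, Pln. WT-PLN hearts carried the intact human sequence. The methods call the R14del-PLN mice heterozygous, so that they held both an intact allele and one without arginine 14. The labels give the strain as C57BL/6J, whereas the methods describe a hybrid line made from 129/Sv-CP; C57Bl/6J chimeras and a Sox2-Cre cross. Age was 12 to 14 weeks, the labels name no treatment for any group, and the mutant samples are titled as knock-outs although their genotype label is R14del-PLN. Values are TPM, a gene's portion of all transcripts in a sample corrected for gene length. Levels of different genes could therefore be set side by side, but the read depth is unknown.

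CaMKII is built as a ring of subunits from these genes. When Ca2+ rises in a cardiomyocyte, calmodulin loaded with Ca2+ binds the regulatory segment and opens the kinase, and a subunit can then phosphorylate a threonine in the regulatory segment of its neighbour, which keeps the kinase active after Ca2+ has fallen. In heart muscle the kinase phosphorylates phospholamban, the ryanodine receptor and L-type Ca2+ channels, and excess activity is linked to Ca2+ leak and arrhythmia. The delta subunit is the main form of the heart and gamma is the other one usually described there, while alpha and beta are best known from the brain, and beta also from skeletal muscle. The comparisons ask whether the supply of these messages differed with the phospholamban mutation or with the ventricle.

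On the mouse genome GRCm38, Camk2d lies on chromosome 3 from 126596302 to 126846326, Camk2b on chromosome 11 from 5969644 to 6066362 and Camk2g on chromosome 14 from 20734875 to 20794088. Calm2 lies on chromosome 17 from 87433412 to 87446935 and Calm3 on chromosome 7 from 16915379 to 16924114. Camk2d is on the plus strand and the other 4 of these genes on the minus strand. The annotation lists 28 transcripts of Camk2d, 17 of Camk2g, 15 of Camk2b and 7 of Camk2a, and the values add up the transcripts of a gene, so splice forms could not be followed.

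The stretch around the autophosphorylated threonine is printed here because it is what makes these genes encode the same switch. It is exonic coding sequence, printed 5′ to 3′ on the gene's strand with the threonine codon in capitals. Camk2b is at chr11:5988976-5989020, Camk2d at chr3:126797720-126797764 and Camk2g at chr14:20760418-20760462.
Camk2b: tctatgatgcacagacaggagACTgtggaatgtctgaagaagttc
Camk2d: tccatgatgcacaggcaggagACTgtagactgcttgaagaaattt
Camk2g: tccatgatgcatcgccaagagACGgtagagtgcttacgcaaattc
Over these 45 bases Camk2b and Camk2d differ at 8 positions, Camk2d and Camk2g at 11, and Camk2b and Camk2g at 15. In the encoded stretch of 15 residues only 1 residue differs between Camk2b and Camk2d and between Camk2b and Camk2g, and 2 differ between Camk2d and Camk2g. No other gene had a transcript at least 95% identical to one of a CaMKII gene over 80% of the shorter transcript.

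The calmodulin genes Calm2 and Calm3 encode the same 149 residues from coding sequences that are 82.7% identical. The first 60 coding bases are shown with the positions at which they differ in capitals, Calm2 within chr17:87435909-87446795 and Calm3 within chr7:16917703-16923843. Both ranges include intron sequence that is not printed.
Calm2: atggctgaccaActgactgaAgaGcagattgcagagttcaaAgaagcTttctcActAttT
Calm3: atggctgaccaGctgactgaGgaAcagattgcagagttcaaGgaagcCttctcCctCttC
All 8 differences in this stretch are at the third base of a codon. Over the whole coding sequence of 450 bases there are 78 differences, 74 of them at the third base, and the longest run of identical bases is 17. A coding read longer than that run therefore differs between the 2 genes. Elsewhere in the genome Calm2 has 2 near-identical copies and Calm3 has 1, listed at no more than 0.240 TPM in any sample. How the counting divided reads between the genes and these copies is not given in the sources used here, so both values carry that uncertainty.

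Several features of the samples bear on these values. The mitochondrial genome supplied 37.3% to 54.5% of TPM, with the lowest share in LV R14del-PLN sample 3 (37.3%). As that share rises, less of the fixed TPM total is left for all other genes together. In the WT-PLN samples numbered 1, LV and RV alike, all 4 Y-linked genes read were at or below 0.191 TPM, against a highest Y-linked value of 20.2 to 30.6 TPM in the other 10 samples, although the methods state that male mice were used. Names of the files place 11 samples in a single sequencing run and RV R14del-PLN sample 3 in another. Ventricular cardiomyocyte markers such as Myh6 and Myl2 summed to 32548 to 49601 TPM. Atrial markers ranged from 58.8 to 1345 TPM in sum. In whole tissue, a smaller number of cells of a type and less RNA per cell cannot be told apart.

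The 6 genes fell into a high and a low tier. Calm2, Camk2d and Calm3 had means over the 12 samples of 68.9 ± 8.29, 63.4 ± 11.9 and 56.8 ± 6.88 TPM (SD, n = 12). Camk2a followed at 19.0 ± 2.89 TPM, Camk2g at 12.4 ± 1.29 TPM and Camk2b at 4.90 ± 1.29 TPM. In each of the 4 groups, the ranges of the 3 samples did not overlap between Calm3 or Camk2d and Camk2a, between Camk2a and Camk2g, or between Camk2g and Camk2b. Within the high tier the order changed from group to group. Ranges of Camk2d overlapped those of at least 1 calmodulin gene in every group, while Calm2 stood apart above Calm3 in the RV of both genotypes. Camk2a was above Camk2g, and Camk2g above Camk2b, in all 12 samples.

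**Figure D1:**
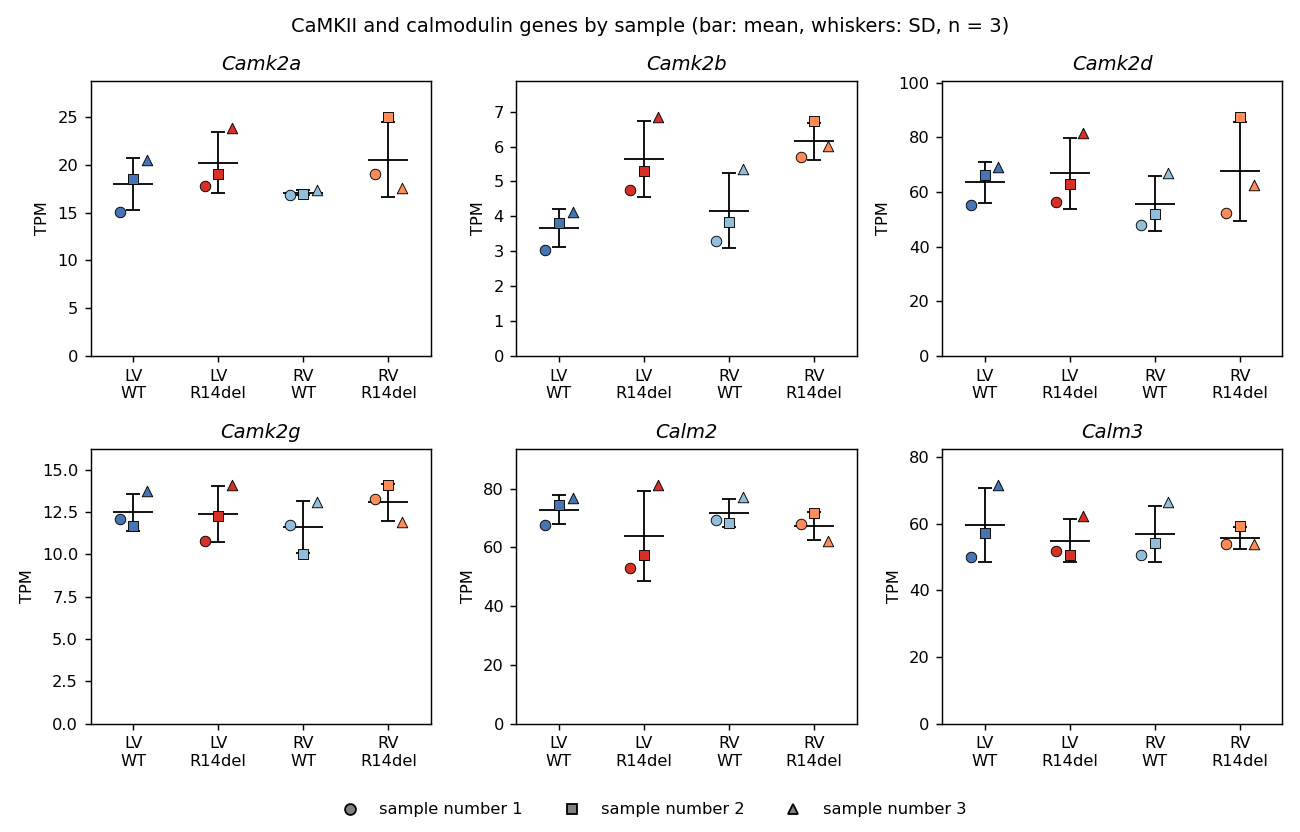
TPM of each gene in every sample, with LV and RV of WT-PLN and R14del-PLN hearts along the x axis, a symbol for each sample number, a bar at the mean and whiskers of 1 SD (n = 3). For Camk2b, the 6 R14del-PLN samples sit at 4.77 to 6.85 TPM, above the WT-PLN samples of the same ventricle, whereas the groups overlap for Camk2d, Camk2g, Calm2 and Calm3.

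Camk2b, the beta subunit gene, had the largest ratio between genotypes among the 6 genes, though not the largest difference in TPM. The LV samples held 3.05, 3.80 and 4.11 TPM with WT-PLN against 4.77, 5.29 and 6.85 TPM with R14del-PLN. The RV samples held 3.30, 3.84 and 5.37 TPM with WT-PLN against 5.71, 6.73 and 6.00 TPM with R14del-PLN. Every R14del-PLN sample was above every WT-PLN sample of the same ventricle, although RV WT-PLN sample 3 (5.37 TPM) was within the LV R14del-PLN range. The means were 3.65 ± 0.546 and 5.64 ± 1.08 TPM in the LV and 4.17 ± 1.07 and 6.15 ± 0.526 TPM in the RV (SD, n = 3), ratios of 1.54 and 1.48. Of the 12526 genes tested, 2.48% had R14del-PLN ranges wholly above WT-PLN in the LV, 5.19% in the RV and 1.23% in both.

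The limma test on log2(TPM + 1), run over the 12526 genes whose mean reached 0.5 TPM, gave Camk2b a log2 fold change of 0.51 (SE 0.17, 95% interval 0.15 to 0.87) in the LV and 0.49 (SE 0.17, 95% interval 0.12 to 0.85) in the RV. After Benjamini-Hochberg adjustment over all genes, its limma p of 0.00957 in the LV became 0.290 and that of 0.0122 in the RV became 0.526. Unadjusted p-values under 0.05 were found for 9.6% of all genes in the LV and 6.22% in the RV. Calls required an adjusted p no larger than 0.05 together with a fold of 1.5 or more, the thresholds of the study. By that rule 0 of the 6 genes were called in the LV, where 0.519% of all genes were called, and 0 in the RV, where 0.271% were. The two-sided exact permutation test gave Camk2b p = 0.1 in each ventricle, the smallest value that 3 samples against 3 allow (adjusted p = 0.8 over 24 such tests).

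This call depended on how the samples were scaled. Dividing each sample by the upper quartile of its tested genes, which takes out the share held by the most abundant genes, placed Camk2b at 3.08, 3.47 and 3.36 in LV WT-PLN and 5.30, 5.60 and 5.66 in LV R14del-PLN samples. On the same scale it was at 3.65, 4.08 and 5.16 in RV WT-PLN and 6.08, 6.60 and 6.88 in RV R14del-PLN samples. The samples of a group drew closer together, and the log2 fold change became 0.60 (SE 0.098, limma adjusted p = 0.0165) in the LV and 0.51 (SE 0.098, limma adjusted p = 0.0367) in the RV. Camk2b was then called higher in the LV, as were 0.279% of all genes. With both directions, 0.79% of genes were called in the LV (35 higher and 64 lower, against 12 higher and 53 lower on the deposited values) and 0.695% in the RV. In the RV its adjusted p passed, as for 0.966% of all genes, but the fold stayed under 1.5 on the log2 scale with a pseudocount of 1. With a pseudocount of 0.1 on the same scaling, an alternative added after seeing the data, the RV value was 0.60 (limma adjusted p = 0.0394) and Camk2b was called there too. The adjusted p in the LV passed for 1.19% of all genes. Scaling moved the median log2 fold change of all genes in the LV from -0.086 to 0.012, and between the ventricles of WT-PLN hearts from -0.17 to -0.0072. Quantile normalization gave 0.62 (adjusted p = 0.0111) in the LV and 0.51 (adjusted p = 0.0295) in the RV by limma. Without mitochondrially encoded genes, the values were 0.57 in both ventricles, with limma adjusted p of 0.101 in the LV and 0.113 in the RV.

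Both WT-PLN samples numbered 1, which have low Y-linked genes, had the lowest Camk2b value of their group. Without them, the log2 fold change on the deposited values was 0.41 in the LV (limma adjusted p = 0.319) and 0.36 in the RV (limma adjusted p = 0.760). After upper quartile scaling it was 0.56 in the LV (limma adjusted p = 0.0239) and 0.42 in the RV (limma adjusted p = 0.0779) without them, and the fold was then under 1.5 in both. Without RV R14del-PLN sample 3, the sample of the other run, the RV value was 0.50 (limma adjusted p = 0.752). The direction was the same in all 28 alternatives that tested Camk2b in each ventricle, which are not independent checks. On the deposited values the ranges did not overlap, so leaving out samples could not reverse it. Other fold thresholds and the replicate block leave the estimate unchanged.

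**Figure D2:**
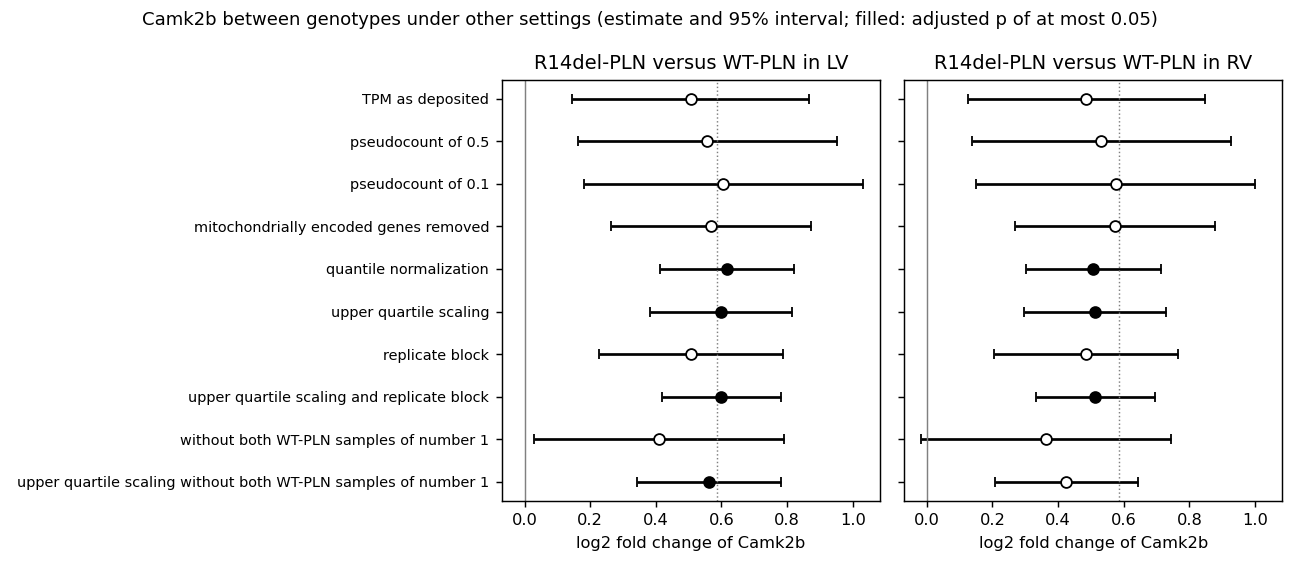
Log2 fold change of Camk2b between R14del-PLN and WT-PLN hearts in LV (left) and RV (right) under 10 settings, with 95% intervals from limma. Filled points have an adjusted p of at most 0.05, the dotted line marks a fold of 1.5, and all points lie to the right of 0, between 0.36 and 0.62.

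Cell types that are known for the beta subunit were checked through their markers. Of 10 neuron and Schwann cell markers, 6 to 7 stayed under 0.5 TPM in all samples of a group, and the synaptic genes Snap25 and Syt1 were at most 0.152 TPM in any sample. Their sum was 12.0 to 16.5 TPM in LV WT-PLN, 10.9 to 12.5 TPM in LV R14del-PLN, 11.2 to 11.9 TPM in RV WT-PLN and 8.78 to 12.7 TPM in RV R14del-PLN samples. Of the 3 markers on the list that were abundant enough to be tested, 0 were called, and their median log2 fold change was -0.30 in the LV and -0.22 in the RV. An unadjusted p under 0.05 was found for 1 of the 3, lower, in the LV and for 0 in the RV, and after upper quartile scaling for 2, both lower, in the LV and for 1, lower, in the RV. Tubb3, a tubulin of neurons on that list that was too low to be tested, was picked after its values were seen. It was at 0 to 0.166 TPM in LV WT-PLN and 0.289 to 0.509 TPM in LV R14del-PLN samples, and at 0 to 0.0499 TPM and 0.197 to 0.455 TPM in the corresponding RV samples. Among the genes tested, which leave out Tubb3, 1.23% had R14del-PLN ranges wholly above WT-PLN in both ventricles. The tested markers of its list had negative medians. Of 7 skeletal muscle markers, the fast myosin genes Myh4 and Myh1 were at most 0.0827 TPM. The list summed to 1458 to 1790 TPM in LV WT-PLN and 1283 to 1846 TPM in LV R14del-PLN samples. In the RV it summed to 1140 to 1286 TPM and 1123 to 1237 TPM. Of its 3 tested markers 0 were called between genotypes, with a median log2 fold change of -0.38 in the LV and -0.15 in the RV. An unadjusted limma p under 0.05 was found for 1, lower, in the LV and for 0 in the RV. The median summed level of red cell genes was lower in R14del-PLN than in WT-PLN samples of both ventricles. It ranged over 2087 to 2316 TPM in LV WT-PLN, 1093 to 2142 TPM in LV R14del-PLN, 1461 to 1736 TPM in RV WT-PLN and 956 to 1368 TPM in RV R14del-PLN samples. The part of nerve, skeletal muscle or blood RNA in the Camk2b values was not tested.

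Camk2d, the main cardiac subunit gene, did not pass the test in either ventricle. It was at 55.1, 66.3 and 69.3 TPM in LV WT-PLN and 56.2, 62.8 and 81.5 TPM in LV R14del-PLN hearts, with a log2 fold change of 0.060 (95% interval -0.37 to 0.49, limma adjusted p = 0.959). In the RV it was at 48.1, 52.1 and 67.1 TPM in WT-PLN and 52.5, 87.5 and 62.6 TPM in R14del-PLN hearts, a log2 fold change of 0.25 (95% interval -0.17 to 0.68, limma adjusted p = 1). On the deposited values the groups overlapped in both ventricles, and RV R14del-PLN sample 2 was the highest of all samples. After upper quartile scaling the LV ranges were apart, at 55.7 to 60.7 in WT-PLN and 62.6 to 67.4 in R14del-PLN samples. The RV ranges still overlapped, at 53.2 to 64.6 and 55.9 to 85.8. In the RV the upper bound of the interval is above 0.585, which is a fold of 1.5 on the log2 scale. The LV estimate turned to -0.038 without both WT-PLN samples numbered 1, and over all alternatives it ran from -0.089 to 0.18.

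Camk2a, the alpha subunit gene, lies on chromosome 18 from 60925618 to 60988152 on the plus strand. In muscle it also gives a kinase-less anchoring protein. Whether transcripts of that protein are counted in the Camk2a value is not given in the sources used here. It was at 15.1, 18.5 and 20.5 TPM in LV WT-PLN and at 17.8, 19.0 and 23.9 TPM in LV R14del-PLN hearts (log2 fold change 0.16, 95% interval -0.18 to 0.50, limma adjusted p = 0.822). In the RV the WT-PLN samples were close together at 16.8, 17.0 and 17.4 TPM, and the R14del-PLN samples were at 19.0, 25.0 and 17.6 TPM. The RV ranges did not overlap, as for 5.19% of all genes in that direction, but the highest WT-PLN and lowest R14del-PLN samples lay close together. The log2 fold change there was 0.24 (95% interval -0.10 to 0.58, limma adjusted p = 0.996), and the exact permutation test gave p = 0.1. After upper quartile scaling Camk2a was at 15.3 to 16.9 in LV WT-PLN and 19.7 to 20.2 in LV R14del-PLN samples. In the RV it was then at 16.7 to 18.7 in WT-PLN and 20.2 to 24.5 in R14del-PLN samples. Ranges on that scale were apart in both ventricles, as for Camk2b, but the share of all genes with such ranges was not computed. No alternative called Camk2a between genotypes.

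Camk2g, the gamma subunit gene, was at 12.1, 11.7 and 13.7 TPM in LV WT-PLN and at 10.8, 12.2 and 14.1 TPM in LV R14del-PLN hearts. RV samples were at 11.7, 10.05 and 13.1 TPM for WT-PLN and at 13.3, 14.1 and 11.9 TPM for R14del-PLN. The groups overlapped in both ventricles. Its log2 fold change was -0.015 (95% interval -0.31 to 0.28) in the LV and 0.16 (95% interval -0.13 to 0.45) in the RV, with limma adjusted p of 0.984 and 1, and the LV value turned to 0.097 after upper quartile scaling. On that scale the RV ranges were apart, at 10.7 to 13.0 in WT-PLN and 13.6 to 14.1 in R14del-PLN samples, while the LV ranges overlapped.

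The calmodulin genes had lower means in R14del-PLN hearts on the deposited values, within the spread between samples. Calm2 was at 67.5, 74.3 and 76.8 TPM in LV WT-PLN and 53.0, 57.3 and 81.3 TPM in LV R14del-PLN hearts, so that 2 mutant samples lay below and 1 above all controls. RV values were 69.4, 68.4 and 77.0 TPM in WT-PLN and 67.9, 71.7 and 62.1 TPM in R14del-PLN hearts. Its log2 fold change was -0.21 (95% interval -0.53 to 0.11, limma adjusted p = 0.728) in the LV and -0.090 (95% interval -0.41 to 0.23, limma adjusted p = 1) in the RV. The highest LV value belonged to R14del-PLN sample 3, the sample with the lowest mitochondrial share. After upper quartile scaling the Calm2 ranges in the RV were apart, at 72.9 to 76.9 in WT-PLN and 70.3 to 72.3 in R14del-PLN samples, while those in the LV overlapped. The Calm2 estimate stayed negative in all 29 alternatives in each ventricle, which are not independent checks, and was called in none.

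Calm3 was at 50.0, 57.2 and 71.6 TPM in LV WT-PLN and 51.9, 50.5 and 62.2 TPM in LV R14del-PLN hearts, a log2 fold change of -0.11 (95% interval -0.43 to 0.22, limma adjusted p = 0.886). RV values were 50.5, 54.0 and 66.3 TPM in WT-PLN and 53.8, 59.4 and 53.9 TPM in R14del-PLN hearts, a log2 fold change of -0.024 (95% interval -0.35 to 0.30, limma adjusted p = 1). All groups overlapped, and after upper quartile scaling the estimates were 0.011 in the LV and 0.0018 in the RV. No direction can be given for Calm3.

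**Figure D3:**
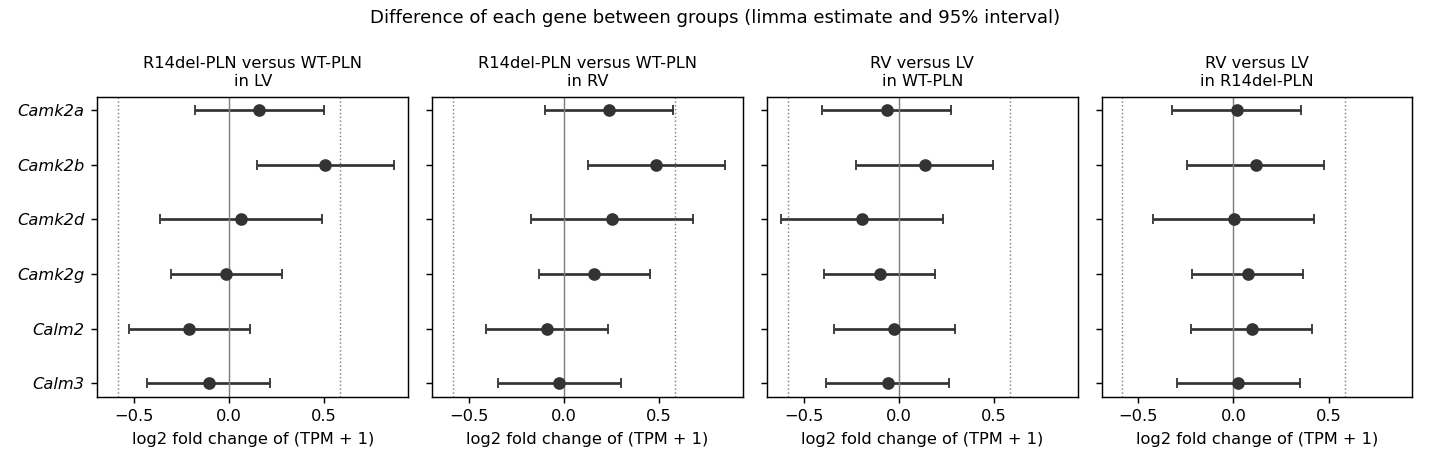
Log2 fold change of each gene for the comparisons between genotypes (left panels) and between ventricles (right panels), as limma estimates with 95% intervals; dotted lines mark a fold of 1.5 in either direction. Camk2b between genotypes is the only gene whose interval leaves out 0, at 0.51 in the LV and 0.49 in the RV.

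Between the ventricles, 0 of the 6 genes were called in WT-PLN hearts and 0 in R14del-PLN hearts, where 0% of all genes were called by limma in either genotype (14.5% and 6.57% of genes had an unadjusted p under 0.05). These comparisons share their samples with those between genotypes. In WT-PLN hearts the log2 fold change of RV over LV ran from -0.19 for Camk2d (95% interval -0.62 to 0.23) to 0.14 for Camk2b (95% interval -0.22 to 0.50). In R14del-PLN hearts the range was from 0.00019 for Camk2d (95% interval -0.43 to 0.43) to 0.12 for Camk2b (95% interval -0.24 to 0.48). Camk2b had the highest estimate of the 6 genes in both genotypes, but its ranges overlapped on the deposited values. After upper quartile scaling its RV ranges were above its LV ranges in both genotypes. They were 3.65 to 5.16 against 3.08 to 3.47 in WT-PLN and 6.08 to 6.88 against 5.30 to 5.66 in R14del-PLN samples. No alternative called Camk2b between the ventricles. After upper quartile scaling the WT-PLN estimates of Camk2a, Camk2g, Calm2 and Calm3 turned from negative to 0.12, 0.080, 0.17 and 0.13, so no direction can be given for them. With the sample number as a block, which pairs LV and RV of WT-PLN hearts, 0.0958% of all genes were called in WT-PLN hearts (12 genes) and still 0 of the 6.

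The difference of the genotype effect between LV and RV was an interaction term of the same limma model. For Camk2b it was -0.021 (95% interval -0.53 to 0.49), for Camk2d 0.19 (95% interval -0.41 to 0.80) and for Camk2g 0.17 (95% interval -0.24 to 0.59). For Calm2 it was 0.12, for Calm3 0.085 and for Camk2a 0.080, and none of the 6 genes was called (limma adjusted p = 1 for each), as for 0% of all genes (1.01% had an unadjusted p under 0.05). A difference between the ventricles of the size of the Camk2b effect itself lies within these intervals, which do not show that LV and RV were alike.

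The make-up of CaMKII messenger RNA can be read within a sample, where the share of mitochondrial transcripts cancels. Of the summed TPM of the 4 subunit genes, Camk2d made up 65.0% ± 0.948 (SD, n = 3) in LV WT-PLN, 63.5% ± 0.912 in LV R14del-PLN, 62.7% ± 2.53 in RV WT-PLN and 62.5% ± 3.98 in RV R14del-PLN hearts. Camk2a made up 18.4% to 19.5% and Camk2g 11.9% to 13.2% as group means. The share of Camk2b was 3.57%, 3.79% and 3.82% in LV WT-PLN samples and 5.32%, 5.32% and 5.42% in LV R14del-PLN samples. In the RV its share was 4.12%, 4.62% and 5.21% in WT-PLN and 6.31%, 5.05% and 6.12% in R14del-PLN samples. The LV groups were apart, and the RV groups overlapped through R14del-PLN sample 2, in which Camk2d was highest.

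Set against Camk2d alone, Camk2b was at 5.53, 5.73 and 5.93 TPM per 100 TPM of Camk2d in LV WT-PLN samples and at 8.48, 8.42 and 8.41 in LV R14del-PLN samples. In the RV it was at 6.86, 7.36 and 7.99 in WT-PLN and at 10.9, 7.69 and 9.59 in R14del-PLN samples. The LV R14del-PLN samples lay close together in this ratio (SD 0.0362), and these shares and ratios are given as descriptions without a test. The RV of WT-PLN hearts stood between the LV groups in every sample.

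**Figure D4:**
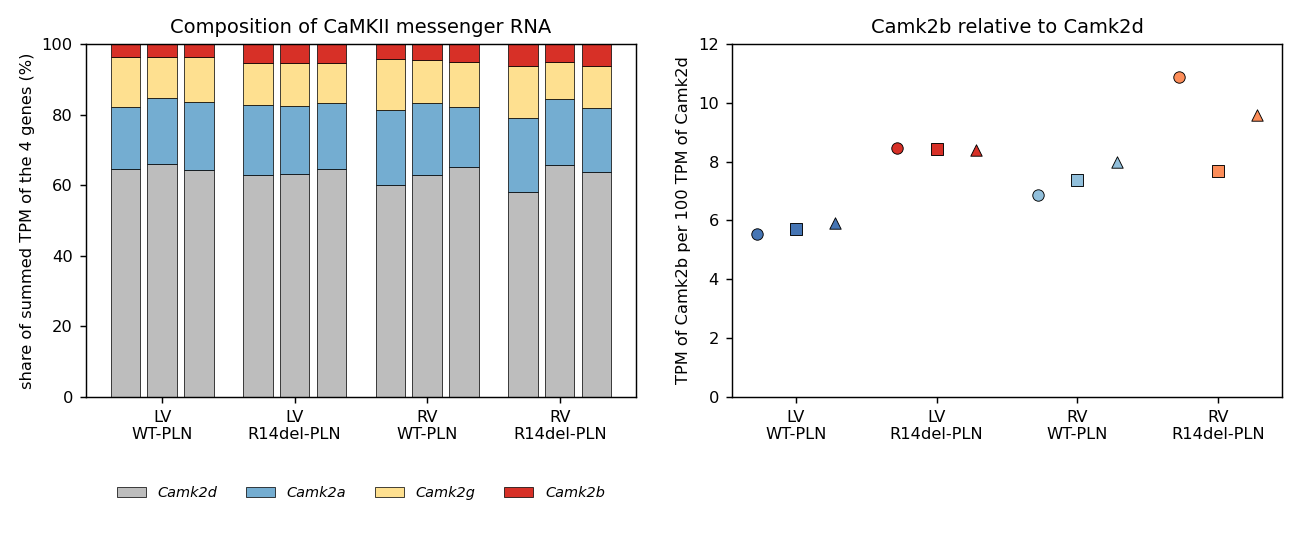
Left, share in percent of each subunit gene in the summed TPM of the 4 CaMKII genes, with a bar for each of the 12 samples; right, TPM of Camk2b per 100 TPM of Camk2d in each sample, with symbols for the sample number. Camk2d fills 58.0% to 66.1% of every bar, and the LV R14del-PLN samples lie at 8.41 to 8.48 against 5.53 to 5.93 in LV WT-PLN.

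Calm2 made up 55.2% ± 3.06 of the summed TPM of Calm2 and Calm3 in LV WT-PLN, 53.5% ± 3.08 in LV R14del-PLN, 55.8% ± 2.09 in RV WT-PLN and 54.7% ± 1.12 in RV R14del-PLN hearts (SD, n = 3). The ranges overlapped between all groups compared, from 50.5% to 57.9% over the 12 samples. The sum of Calm2 and Calm3 per unit of the 4 CaMKII genes was 1.38, 1.31 and 1.38 in LV WT-PLN samples and 1.17, 1.08 and 1.14 in LV R14del-PLN samples. In the RV it was 1.4997, 1.48 and 1.39 in WT-PLN and 1.35, 0.983 and 1.18 in R14del-PLN samples. Every R14del-PLN sample was below every WT-PLN sample of its ventricle. This ratio was put together after the members' values were known, and it has no test.

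Genes around the kinase were taken from 5 lists of 51 genes in all. Of 4 CaMKII regulators, all 4 were tested and 0 were called in any comparison. Ppm1f, a phosphatase that acts on CaMKII, was at 8.95 ± 1.19 TPM in LV WT-PLN, 7.83 ± 1.23 in LV R14del-PLN, 6.59 ± 0.516 in RV WT-PLN and 6.51 ± 0.322 in RV R14del-PLN hearts (SD, n = 3). Camk2n1, an inhibitor protein of the kinase, was at 3.89 ± 0.285, 3.48 ± 0.392, 3.89 ± 0.121 and 4.57 ± 1.51 TPM in the same order. Ppm1e, another CaMKII phosphatase, had a log2 fold change of -0.25 in the LV (limma adjusted p = 0.641). The median log2 fold change of the list was -0.15 in the LV and -0.017 in the RV, beside -0.086 and -0.0034 for all genes.

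Other calmodulin-dependent kinases made a list of 18 genes, of which 13 were tested and 0 called in any comparison. Mylk3, the cardiac myosin light chain kinase, was the most abundant at 194 ± 33.1 TPM in LV WT-PLN, 178 ± 33.96 in LV R14del-PLN, 247 ± 34.3 in RV WT-PLN and 201 ± 46.3 in RV R14del-PLN hearts. Mylk4, a kinase of the same family, had group means of 44.8 to 49.7 TPM. Dapk2, a death-associated kinase regulated by calmodulin, had the smallest p of the list in both ventricles, with group means of 3.04 ± 0.854 and 1.70 ± 0.440 TPM in LV and 2.66 ± 0.508 and 1.63 ± 0.414 TPM in RV for WT-PLN and R14del-PLN. Its log2 fold change was -0.57 in the LV (limma adjusted p = 0.284) and -0.48 in the RV (limma adjusted p = 0.649). Medians of the list were -0.18 in the LV and -0.080 in the RV.

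Calcineurin is the phosphatase that calmodulin activates beside the kinase. Of 9 genes for its subunits and regulators, 8 were tested and 0 called. Rcan2, a regulator that binds calcineurin, was at 144 ± 5.05 TPM in LV WT-PLN and 140 ± 18.6 TPM in LV R14del-PLN hearts. Ppp3r1, the regulatory subunit, was at 24.2 ± 0.525 TPM in LV WT-PLN and 20.4 ± 0.154 TPM in LV R14del-PLN hearts, a log2 fold change of -0.24 (limma adjusted p = 0.510), which was -0.12 after upper quartile scaling. Cabin1, a calcineurin-binding protein, had the smallest p in the RV with a log2 fold change of 0.21 (limma adjusted p = 1). The median of the list was -0.062 in the LV and 0.018 in the RV.

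Of 6 small calmodulin-like or calmodulin-binding proteins, 3 were tested and 0 called. Pcp4l1, a relative of the calmodulin-binding protein PCP4, was the only abundant one, at 102 ± 4.91 TPM in LV WT-PLN, 91.6 ± 7.33 in LV R14del-PLN, 109 ± 7.22 in RV WT-PLN and 93.3 ± 11.4 in RV R14del-PLN hearts. Its log2 fold change was -0.15 in the LV (limma adjusted p = 0.755) and -0.23 in the RV (limma adjusted p = 0.868). Nrgn, neurogranin, and Calml4, a calmodulin-like protein, were low, with group means of 0.970 to 3.20 TPM and 0.322 to 0.909 TPM.

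CaMKII substrates of the cardiomyocyte were a list of 14 genes, all tested, with 0 called in any comparison. Pln, the phospholamban gene, was at 1801 ± 85.1 TPM in LV WT-PLN and 1630 ± 79.5 TPM in LV R14del-PLN hearts (log2 fold change -0.14, limma adjusted p = 0.746), and how reads of the human sequence were assigned to it is not given in the sources used here. Mybpc3, cardiac myosin-binding protein C, was at 932 ± 177 TPM in LV WT-PLN, 1017 ± 258 in LV R14del-PLN, 680 ± 90.9 in RV WT-PLN and 771 ± 129 in RV R14del-PLN hearts. Mef2a, a transcription factor, had a log2 fold change of -0.24 in the LV (limma adjusted p = 0.654). Kcnd3, a subunit of the transient outward K+ channel, had one of 0.19 in the RV (limma adjusted p = 0.997). The median log2 fold change of the list was -0.040 in the LV and -0.0069 in the RV.

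The genes whose pattern over the 12 samples was most like each member were ranked by Pearson's r of log2(TPM + 1) among 6850 genes whose mean reached 5 TPM. These r values are descriptions over samples that share their scaling, and they include the difference between the genotypes. Camk2b was followed most closely by Tbc1d4 (r = 0.973), a Rab GTPase-activating protein of insulin-stimulated glucose uptake, then by 2610044O15Rik8 (r = 0.929) and by Acsl6 (r = 0.914), an acyl-CoA synthetase. After upper quartile scaling these r values were 0.969, 0.934 and 0.937. Camk2d was most like Chd4 (r = 0.971), Samd4 (r = 0.959) and Xirp2 (r = 0.957), and Kpna6 (r = 0.944) and Eif4e (r = 0.924) were among the genes most like Camk2a. Vps39 (r = 0.939) and Add3 (r = 0.935) were among those most like Camk2g. Upper quartile scaling changed these to 0.953, 0.935 and 0.866 for Chd4, Samd4 and Xirp2, to 0.939 and 0.852 for Kpna6 and Eif4e, and to 0.715 and 0.846 for Vps39 and Add3.

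Calm2 was most like Serinc1 (r = 0.937), Utp14a (r = 0.936) and Dync1i2 (r = 0.935), values that became 0.785, 0.844 and 0.844 after upper quartile scaling. Calm3 was most like Htra1 (r = 0.960), Polr2a (r = 0.939) and BC005537 (r = 0.934), which became 0.837, 0.726 and 0.763.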

How the data were processed

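Polyadenylated RNA of 12 ventricle samples was sequenced, and the authors deposited TPM, with 1 value per gene and sample. TPM add up to 1000000 in every sample, so the files keep no depth and allow no counting interval. The paper names CLC Genomics Workbench and GRCm38 for its RNA-seq analysis. The program and annotation behind the deposited TPM, and whether counting used strand, are not given in the sources used here. Groups and numbers were taken from the sample titles. The paper describes its RNA-seq groups by number of mice, but the labels do not tie a sample to a mouse. If samples of the same group shared a mouse, p-values would measure only technical spread. If LV and RV samples of the same number shared a mouse, the main tests between ventricles and of the interaction ignore that pairing.

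Genes whose mean reached 0.5 TPM (12526) were fitted in R 4.3.3 by limma 3.58.1, with a trended empirical Bayes step, on log2(TPM + 1), as a single model of 4 group means, with Benjamini-Hochberg adjustment over all of them. A fold change is on that scale and understates changes of low genes. The code was tested on simulated data. A replicate block was tried. Deviations from group means correlated at 0.321 to 0.657 between LV and RV samples of the same number in WT-PLN, which was taken as pairing from the data, and at 0.0542 to 0.389 in R14del-PLN, which was not. Between genotypes, samples of the same number correlated at -0.0209 to 0.156 in LV and at 0.0610 to 0.219 in RV. Samples of different number had mean correlations of -0.038 in LV and -0.070 in RV. Whether samples of the same number shared a processing step was not tested.

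Coordinates and sequences are from GRCm38 with the GENCODE vM21 annotation. Near-identical copies were sought with BLAST 2.17.0 at 95% identity over 80% of the shorter transcript. Exact permutation tests were enumerated in Python 3.11.15 with numpy 2.4.6, and their adjustment used scipy 1.17.1. Figures used matplotlib 3.10.9, and tables pandas 2.3.3 and numpy. Named genes were the 6 members; from each list the 2 genes of highest mean TPM, any called gene, and the gene of smallest p between genotypes in each ventricle; and the 3 genes most like each member. Tubb3, Snap25, Syt1, Myh1 and Myh4 were named after their values were seen. The members and lists were chosen with earlier results of these data known. Some genes are not reported here.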

Additional observations from a re-analysis of the deposited data

How the results depend on the processing

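With 3 samples a group and unknown depth, the Camk2b call is what the processing decides. It was the 1 member called between genotypes in LV under quantile normalization (log2 fold change 0.62), upper quartile scaling (0.60), upper quartile scaling with a pseudocount of 0.1 (0.72) and upper quartile scaling with the replicate block (0.60), and in RV 1 member was called with that scaling and a pseudocount of 0.1 (0.60). Leaving out 1 sample gave 0.38 to 0.60 in LV and 0.36 to 0.65 in RV. The filter at a mean of 5 TPM leaves Camk2b untested. The replicate block alone changed no call of the 6 genes. In the comparisons between genotypes it matched samples by number alone, across mice of different genotype, which is not a pairing. Calls over all genes went with it from 65 to 119 in LV, from 34 to 62 in RV and from 0 to 12 between ventricles in WT-PLN. Over the other alternatives they ranged from 19 to 230 in LV (230 without both WT-PLN samples of number 1) and from 14 to 144 in RV. Alternatives were other pseudocounts, filters, fold thresholds and scalings, the block and each sample left out. Removal of both WT-PLN samples of number 1 was also tried. After seeing the data, 3 were added: upper quartile scaling with a pseudocount of 0.1, with the replicate block, and without both WT-PLN samples of number 1. The cause of the changes was not tested.

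None of the estimates that changed sign was called, and the log2 values that did so follow. Without both WT-PLN samples of number 1, Camk2d was -0.038 between genotypes in LV. With a pseudocount of 0.1, Camk2d was -7.9e-06 between ventricles in R14del-PLN. Quantile normalization gave Camk2g 0.10 between genotypes in LV, then between ventricles in WT-PLN 0.12 for Camk2a, 0.0098 for Camk2d, 0.089 for Camk2g, 0.16 for Calm2 and 0.15 for Calm3, and in the interaction -0.0061 for Camk2a and -0.00051 for Calm3. Upper quartile scaling, alone or with the block, gave 0.097 for Camk2g and 0.011 for Calm3 between genotypes in LV, 0.0018 for Calm3 in RV, then between ventricles in WT-PLN 0.12 for Camk2a, 0.080 for Camk2g, 0.17 for Calm2 and 0.13 for Calm3, and in the interaction -0.010 for Camk2a and -0.0088 for Calm3. With a pseudocount of 0.1 added to that scaling, the same values were 0.10, 0.011, 0.0018, 0.13, 0.086, 0.17, 0.13, -0.012 and -0.0089. Upper quartile scaling without both WT-PLN samples of number 1 gave 0.15 for Camk2g between genotypes in LV, then between ventricles in WT-PLN 0.045 for Camk2a, 0.029 for Camk2d, 0.079 for Camk2g, 0.17 for Calm2 and 0.13 for Calm3, and -0.0052 for Calm3 in the interaction. Removing mitochondrially encoded genes gave 0.0010 for Camk2g between genotypes in LV, 0.019 for Calm3 in RV, then between ventricles in WT-PLN 0.069 for Camk2a, 0.029 for Camk2g, 0.11 for Calm2 and 0.077 for Calm3, and 0.0068 for Camk2b in the interaction.

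Leaving out 1 sample at a time spanned 0 for these log2 values. Between genotypes in LV they were -0.089 to 0.17 for Camk2d, -0.11 to 0.072 for Camk2g and -0.23 to 0.029 for Calm3, and in RV -0.10 to 0.089 for Calm3. Between ventricles in WT-PLN they were -0.18 to 0.029 for Camk2a, -0.023 to 0.26 for Camk2b, -0.077 to 0.014 for Calm2 and -0.18 to 0.079 for Calm3. In R14del-PLN they were -0.13 to 0.14 for Camk2a, -0.20 to 0.16 for Camk2d, -0.011 to 0.17 for Camk2g, -0.023 to 0.28 for Calm2 and -0.029 to 0.12 for Calm3. In the interaction they were -0.064 to 0.20 for Camk2a, -0.14 to 0.14 for Camk2b, -0.0063 to 0.36 for Camk2d and -0.053 to 0.20 for Calm3.

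Rescaling to nuclear genes alone raises every level by construction. In the order LV WT-PLN, RV WT-PLN, LV R14del-PLN and RV R14del-PLN, the means became 33.3, 34.8, 37.6 and 43.0 TPM for Camk2a, 6.76, 8.43, 10.5 and 12.9 for Camk2b, 118, 113, 124 and 142 for Camk2d, 23.1, 23.7, 23.1 and 27.4 for Camk2g, 135, 146, 118 and 141 for Calm2, and 110, 116, 102 and 117 for Calm3. Quantile normalization moved 5 means by more than 1 SD, to 17.8 for Camk2a in RV WT-PLN, 11.4 for Camk2g and 66.1 for Calm2 in LV WT-PLN, and 72.6 for Calm2 and 59.7 for Calm3 in RV R14del-PLN.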
